A study of Danio rerio with 14 samples.

Results

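A set of 5 genes that act on fat in lipoproteins and in cells was followed across adult zebrafish livers: angptl4, the lipase genes lpla, lipca and lipea, and slc27a6. They were selected by gene symbol, from genes whose differences between these same arrays were already known. Their own differences are therefore given as a description, with no p-value. Where the number of them that passed a threshold is printed, nothing is read from it. The rule itself names no contrast or threshold, but the contrasts were known when the genes were chosen, so none of them is independent of the choice. They are 5 of the 8699 genes that had a tested probe set assigned to exactly 1 gene, and all 5 passed the filter on low values. Each was read by a probe set of its own, 1 per gene.

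Fat travels in blood as triglyceride inside lipoproteins. Lipases at the vessel wall release fatty acids from it, transport proteins and acyl-CoA synthetases carry these into cells, and other lipases later free them again from lipid droplets. ANGPTL4 is a secreted protein that blocks lipoprotein lipase, and in mammals its gene is switched on by fatty acids, fasting and low oxygen. A fatty liver gains triglyceride when uptake and synthesis exceed oxidation and export.

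The study asked which genes differ in liver with fat accumulation. It measured liver RNA on Affymetrix expression arrays from fish with both copies of ahcy (ahcy+/+) or with 1 mutant copy (ahcy+/-); ahcy encodes the enzyme that hydrolyses S-adenosylhomocysteine. Fish of both genotypes shared a tank on the regular diet, or a tank that received food in excess, for a month. The arrays comprised 4 ahcy+/+ and 3 ahcy+/- livers on the regular diet, and 5 ahcy+/+ and 2 ahcy+/- livers after overfeeding. Because each diet was given in a single tank, diet and tank cannot be told apart. The labels used here give no sex and no name for the mutant allele, and do not say whether each array holds the RNA of 1 fish, so the p-values measure only the spread between these arrays.

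Values are the authors' log2 expression levels, and a difference of 1 is a doubling of the signal. Array medians lay between 5.95 and 6.12, and the number of arrays limits the precision. A level cannot be compared between genes, since each probe set has its own sensitivity. The liver label was checked with a hepatocyte list, of which 15 of 19 genes were measured and whose mean level was 12.42 to 13.21 on every array. Genes of neighbouring organs were present as well. The mean of 15 exocrine pancreas genes ranged from 7.36 to 12.94 between arrays, and that of 11 intestinal genes from 5.70 to 10.29. Array 9 of the regular-diet ahcy+/+ group stood apart: it correlated with the arrays of its group at 0.912 on average, where the remaining arrays had averages of 0.942 to 0.974, and its vitellogenin and oestrogen receptor list had a mean of 12.54, against 5.41 to 5.51 on the other 3 arrays of the group. In bulk liver, fewer cells of a type and less RNA per cell cannot be told apart.

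**Figure D1:**
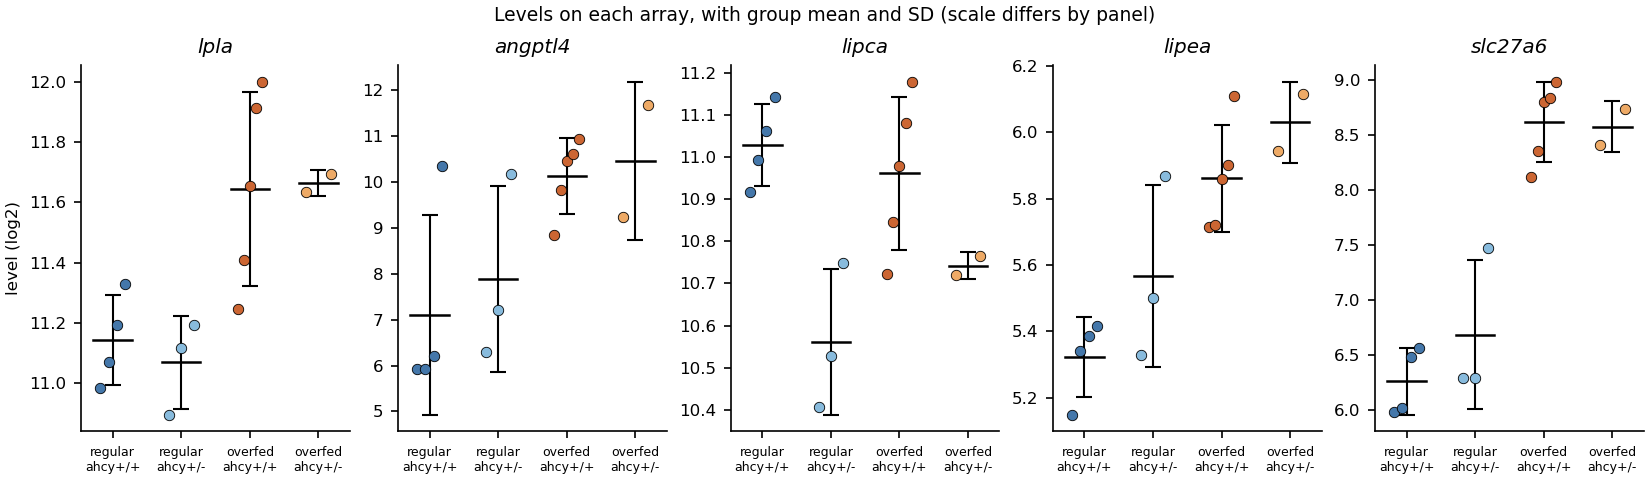
Level (log2) of each gene on every array, by genotype and diet, with the group mean and SD (n = 4, 3, 5 and 2); the vertical scale differs by panel. For slc27a6 the overfed arrays lie at 8.12 to 8.98 and the regular-diet arrays at 5.98 to 7.47, whereas the angptl4 arrays on the regular diet fall at 5.92 to 7.21 apart from the pair at 10.16 and 10.35.

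The lipoprotein lipase gene lpla encodes the enzyme that cleaves triglyceride in circulating lipoproteins, and in mammals it is made mainly by fat and muscle. On the regular diet its levels in ahcy+/+ livers were 10.98, 11.07, 11.19 and 11.33, and after overfeeding 11.41, 11.91, 12.00, 11.65 and 11.24. The overfed group stood higher, by 0.50 ± 0.15 (SE), or 1.41-fold, but its lowest array lay below the highest regular one, array 9. In ahcy+/- livers the levels were 11.19, 10.89 and 11.12 on the regular diet and 11.63 and 11.70 after overfeeding. These groups did not overlap, as for 32.1% of all probe sets in this contrast, and their means differed by 0.60 ± 0.21, or 1.51-fold. Quantile normalization brought the difference in ahcy+/+ livers down to 0.25. Of the adipocyte list 4 of 12 genes were measured (cidec, cfd, rbp4 and pck1), not including adiponectin, leptin or perilipin 1. Whether these 4 gauge fat tissue in a liver sample was not tested. In ahcy+/+ livers 2 of the 4 were higher after overfeeding and 2 lower, 1 of the latter past the test, with a median difference of 0.11.

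Most genes of several cell type lists differed in 1 direction with diet beside lpla, lipea and slc27a6. In ahcy+/+ livers 15 of 15 hepatocyte genes were higher after overfeeding, 2 of them past the test, with a median difference of 0.33. Exocrine pancreas genes were lower for 14 of 15 (median -0.96), intestinal genes for 9 of 11 (median -1.96, 1 past the test) and striated muscle genes for 15 of 16 (median -0.23). The pancreas mean of regular array 9 was 12.34. On the others of its group it was 8.88 to 10.21, much as the 8.77 to 10.58 after overfeeding. Leukocyte genes were lower for 10 of 11 (median -0.42) and erythrocyte genes higher for 4 of 4 (median 0.54), with none past the test. In ahcy+/- livers none of these genes passed, and 11 of 15 hepatocyte genes were higher. Lower there were 15 of 15 pancreas genes (median -2.35), 10 of 11 intestinal genes and 16 of 16 muscle genes (median -0.66). The pancreas list means of ahcy+/- livers were 11.12 to 12.94 on the regular diet. After overfeeding they were 12.22 on array 1, within that range, and 7.36 on array 4. Leukocyte genes were lower for 6 of 11, and erythrocyte genes higher for 4 of 4 (median 0.89). Of 3 endothelium genes 2 were higher in ahcy+/+ livers, 1 of them past the test, and 1 was higher in ahcy+/- livers. Vitellogenin and oestrogen receptor genes were higher for 2 of 4 in ahcy+/+ livers (median -0.3). In ahcy+/- livers they were higher for 4 of 4 (median 3.34). Outside array 9, that list had ahcy+/+ means of 5.41 to 5.51 on the regular diet and 6.38 to 8.43 after overfeeding. With covariates for the pancreas and intestine lists the diet difference in ahcy+/+ and ahcy+/- livers was 0.50 and 0.71 for lpla, 0.64 and 0.54 for lipea, and 2.35 and 1.98 for slc27a6. With a covariate for the vitellogenin genes it was 0.50, 0.54 and 2.36 in ahcy+/+ livers, for lpla, lipea and slc27a6 in that order. In ahcy+/- livers the range over all alternatives, that covariate among them, was 0.44 to 0.71, 0.35 to 0.62 and 1.70 to 2.29. The part of the hepatocyte, muscle, leukocyte, erythrocyte, endothelium and adipocyte lists in these differences was not tested.

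The inhibitor gene angptl4 had the widest spread of the 5. In regular-diet ahcy+/+ livers it read 5.93, 5.92, 6.20 and 10.35, the last on array 9. In regular-diet ahcy+/- livers it read 6.28, 7.21 and 10.16, the last on array 8. One array in each regular group was thus in the overfed range while the others were far below it. Overfed ahcy+/+ livers read 10.44, 10.93, 9.82, 10.60 and 8.85, and overfed ahcy+/- livers read 11.67 and 9.24. The group means were 7.10 ± 2.17 (SD, n = 4) and 10.13 ± 0.82 (n = 5) in ahcy+/+ livers, a difference of 3.03 ± 0.98 (SE), or 8.15-fold. In ahcy+/- livers they were 7.88 ± 2.02 (n = 3) and 10.46 ± 1.72 (n = 2), a difference of 2.57 ± 1.34. Single arrays moved these values by more than 1.5-fold: without array 9 the first difference was 4.11, and the second was 3.71 without array 8, 1.77 without regular array 3, 1.36 without overfed array 1 and 3.79 without overfed array 4.

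Array 9 also carried the highest mean of the vitellogenin and oestrogen receptor list of all arrays, 12.54. Its pancreas mean was 12.34 and its intestinal mean 9.72. Array 8 of the ahcy+/- group had a vitellogenin and oestrogen receptor mean of 5.67, near the 5.41 and 5.56 of the others of its group. The pancreas mean of array 8 was 12.10 and its intestinal mean 8.06. The highest overfed angptl4 value, 11.67, was on an array with a vitellogenin and oestrogen receptor mean of 10.91 and a pancreas mean of 12.22. The highest pancreas mean of all, 12.94, was on regular-diet ahcy+/- array 3, where angptl4 read 6.28. The highest intestinal mean, 10.29, was on array 7 of the same group, where angptl4 read 7.21. Overfed ahcy+/+ arrays 2 and 6 read 10.44 and 10.60 in angptl4, with pancreas means of 8.91 and 8.77. The vitellogenin covariate was the mean of the 3 vitellogenin genes alone, without the oestrogen receptor gene. With it the diet difference of angptl4 was 3.18 in ahcy+/+ and 0.73 in ahcy+/- livers. With covariates for the pancreas and intestine lists it was 4.38 and 4.63. Beyond these values, the part of the other cell types in the angptl4 levels was not tested.

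The 3 genes whose pattern over the 14 arrays was most like that of angptl4, among 9908 probe sets compared, were slc22a31 (Pearson r = 0.99), klf11b (r = 0.97) and ston2 (r = 0.96). They were chosen for this likeness, and the arrays share their diet groups. The same arrays stood out in them. On the regular diet klf11b, a Krüppel-like transcription factor gene, read 5.25, 5.30, 5.48 and 8.56 in ahcy+/+ livers, the last on array 9, and 5.35, 5.30 and 7.76 in ahcy+/- livers, the last on array 8. After overfeeding it read 7.83 to 9.09 in ahcy+/+ livers and 9.01 and 7.91 in ahcy+/- livers. For slc22a31, a member of an organic ion transporter family, the same pair of regular arrays read 7.74 and 7.52, against 5.50 to 6.09 on the other 5.

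**Figure D2:**
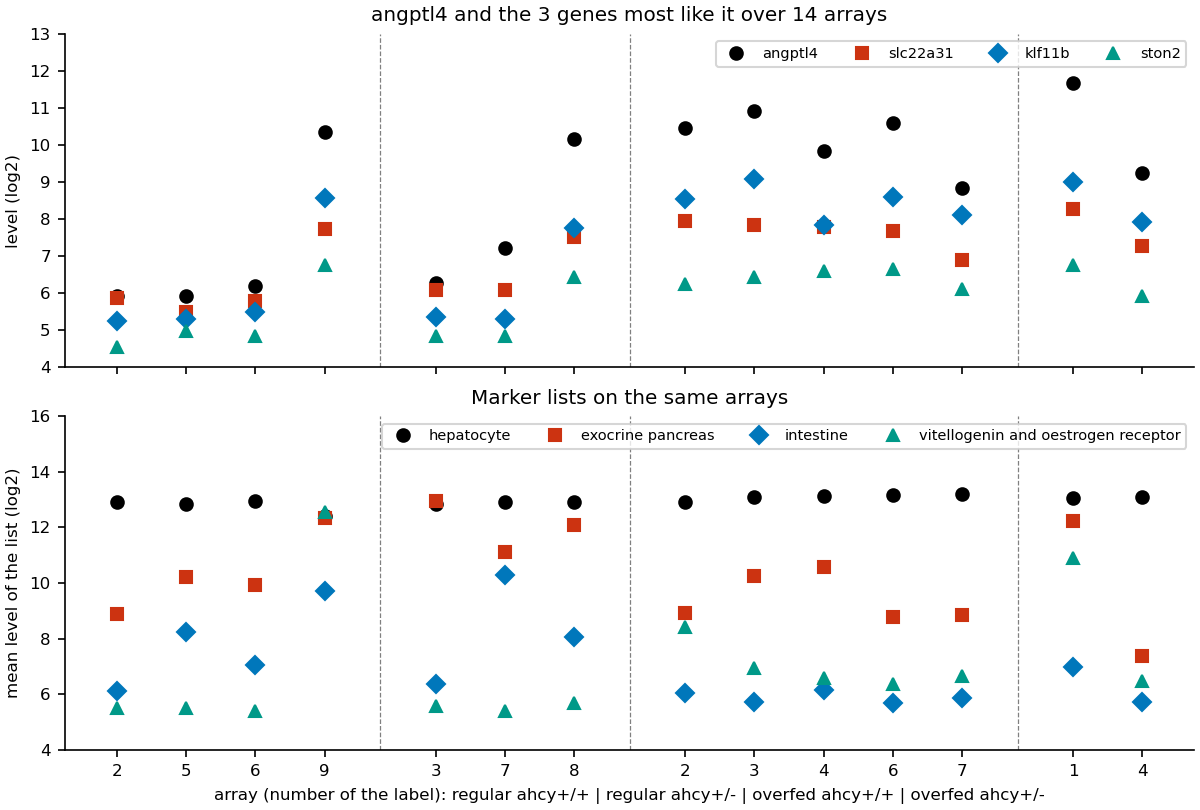
Upper panel: level (log2) of angptl4, slc22a31, klf11b and ston2 on each of the 14 arrays; lower panel: mean level (log2) of the marker lists on the same arrays, ordered by group along the horizontal axis. All 4 genes are high on regular-diet array 9 of ahcy+/+ and array 8 of ahcy+/-. The vitellogenin and oestrogen receptor list is high on the former (12.54) and not on the latter (5.67).

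Hepatic lipase, encoded by lipca, is secreted by hepatocytes and acts on the triglyceride and phospholipid of lipoprotein remnants and high-density lipoprotein. Its diet groups overlapped in ahcy+/+ livers, with 11.06, 10.99, 11.14 and 10.92 on the regular diet and 10.72, 10.85, 10.98, 11.18 and 11.08 after overfeeding. The difference was -0.07 ± 0.11 (SE), and it was -0.30 after quantile normalization. On the regular diet the ahcy+/- livers read 10.41, 10.75 and 10.53, all below the lowest ahcy+/+ value. In this contrast 3.04% of all probe sets did not overlap, and 0% passed limma's test at an adjusted p of 0.05. The difference was -0.47 ± 0.13, a level 1.38-fold lower. After overfeeding the ahcy+/- livers read 10.72 and 10.77, the first marginally below the lowest ahcy+/+ array (10.720 against 10.723) and the second above it, and the difference was -0.22 ± 0.14. On the regular diet the exocrine pancreas list was higher in ahcy+/- livers for 15 of 15 genes, none of which passed the test, with list means of 12.05 ± 0.91 (SD, n = 3) against 10.35 ± 1.45 (n = 4). Intestinal genes were higher for 11 of 11, muscle genes for 14 of 16 and hepatocyte genes for 14 of 15 (median 0.12). Leukocyte genes were lower for 10 of 11 and erythrocyte genes for 4 of 4. Vitellogenin and oestrogen receptor genes were lower for 4 of 4 (median -1.89). Array 9 of ahcy+/+ had a mean of 12.54 for that list. The others of its group had 5.41 to 5.51, and the ahcy+/- arrays 5.41 to 5.67. Adipocyte genes were higher for 4 of 4 and endothelium genes for 2 of 3. None of these genes passed the test. With covariates for the pancreas and intestine lists the lipca difference was -0.40. Over all alternatives, the vitellogenin covariate among them, it was -0.59 to -0.39. The part of the muscle, hepatocyte, leukocyte, erythrocyte, adipocyte and endothelium lists was not tested.

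Hormone-sensitive lipase, encoded by lipea, cleaves diacylglycerol and cholesteryl esters inside cells. In ahcy+/+ livers it read 5.39, 5.15, 5.42 and 5.34 on the regular diet and 5.86, 6.11, 5.72, 5.90 and 5.71 after overfeeding. The groups did not overlap, as for 8.68% of all probe sets, and the difference was 0.54 ± 0.12 (SE), or 1.45-fold. In ahcy+/- livers it read 5.33, 5.87 and 5.50 on the regular diet and 6.12 and 5.95 after overfeeding, a difference of 0.46 ± 0.17. These groups did not overlap either, but neither did those of 32.1% of all probe sets in this contrast. Across genotypes the regular-diet ahcy+/- array at 5.87 lay above the lowest overfed ahcy+/+ array at 5.71. The lipea values, 5.15 to 6.12 over all arrays, lay near or below the array medians of 5.95 to 6.12. How much of this low signal is background was not tested.

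The fatty acid transport gene slc27a6 encodes a protein of the family that takes up long-chain fatty acids and joins them to coenzyme A; in human it is best known from heart. In ahcy+/+ livers it read 6.02, 6.48, 6.57 and 5.98 on the regular diet and 8.84, 8.98, 8.80, 8.36 and 8.12 after overfeeding. The difference was 2.36 ± 0.26 (SE), or 5.13-fold. In ahcy+/- livers it read 6.29, 6.29 and 7.47 on the regular diet and 8.74 and 8.41 after overfeeding, a difference of 1.89 ± 0.35, or 3.71-fold. The 7 overfed arrays all lay above the 7 regular ones, as they did for no other gene of the 5. Array 9, where angptl4 was high, had the lowest slc27a6 value of all, whereas array 8 had the highest value on the regular diet; without array 8 the ahcy+/- difference was 2.29.

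Counted together, 2 of the 5 genes (lipea and slc27a6) passed an adjusted p of 0.05 for diet in ahcy+/+ livers, where 4.50% of all probe sets did, and the same pair did not overlap, as did not 8.68% of all. For diet in ahcy+/- livers none passed, against 0.0991% of all (2145 at an unadjusted p under 0.05), and lipea, lpla and slc27a6 did not overlap, against 32.1%. The non-overlap of slc27a6 over all 7 against 7 arrays was shared by 3.55% of probe sets. Over the alternatives, 1 to 4 of the 5 genes passed for diet in ahcy+/+ livers. The count was 1 without regular-diet array 2, where 264 of all probe sets passed, and 4 with array weights, where 1949 did. For diet in ahcy+/- livers it was 0 or 1, the latter with array weights among others, where 80 of all passed. Nothing is read from these counts, because the genes were chosen with these contrasts known. The median difference of all 15134 probe sets was -0.03 for diet in ahcy+/+ and -0.09 in ahcy+/- livers.

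Apart from lipca, the genotype differences of these genes were smaller than their diet differences. On the regular diet 0% of all probe sets passed limma's test at an adjusted p of 0.05, with 459 at an unadjusted p under 0.05, and lipca alone of the 5 did not overlap, against 3.04% of all. The ahcy+/- minus ahcy+/+ difference was 0.78 ± 1.12 (SE) for angptl4, 0.24 ± 0.14 for lipea, -0.07 ± 0.17 for lpla and 0.42 ± 0.29 for slc27a6. Without array 8 the value was 0.03 for slc27a6 and -0.35 for angptl4, and without array 9 it was 1.86 for angptl4. After overfeeding 0% of probe sets passed, with 260 at an unadjusted p under 0.05, and none of the 5 was free of overlap, against 6.61%. Differences there ran from -0.22 for lipca to 0.33 ± 1.23 for angptl4, which was -0.89 or 1.54 when overfed ahcy+/- array 1 or 4 was left out. For the interaction of diet and genotype 0% passed, with 289 at an unadjusted p under 0.05. The diet difference in ahcy+/- minus that in ahcy+/+ livers was -0.45 ± 1.66 for angptl4, -0.07 ± 0.21 for lipea, 0.10 ± 0.26 for lpla, 0.25 ± 0.19 for lipca and -0.47 ± 0.44 for slc27a6, each smaller than 2 SE.

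**Figure D3:**
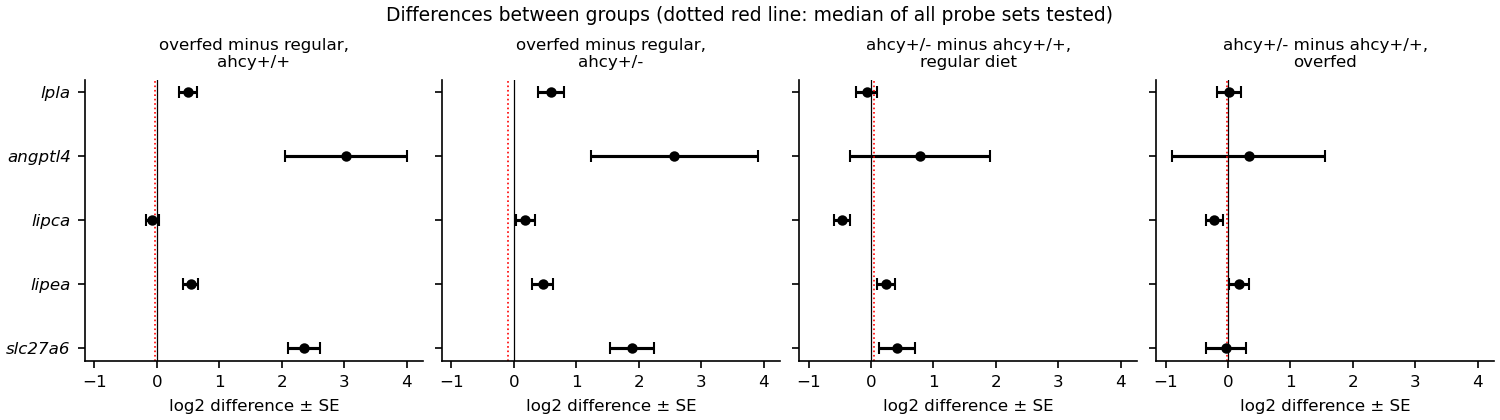
Difference between groups (log2) with its SE for each of the 5 genes in each contrast; the dotted line is the median of all probe sets tested. The diet differences of slc27a6 are 2.36 and 1.89, and those of angptl4, 3.03 and 2.57, have the widest error bars. They are given as a description, since the genes were chosen with these contrasts known.

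Over all 14 arrays no pair of the 5 genes was found to vary together within groups, though groups of 2 to 5 arrays limit what can be found. Over the 10 pairs, the correlation of deviations from the group means ranged from r = -0.32 for lipca and slc27a6 to r = 0.39 for angptl4 and slc27a6 (adjusted p = 0.68 for both, 2-sided exact permutation within groups, 14 arrays), and 0 pairs had an unadjusted p under 0.05 for r. For angptl4 and lipea r was 0.27 and Spearman's rho 0.49 (exact permutation, adjusted p = 0.68 and 0.548). Without array 9 of ahcy+/+ and array 8 of ahcy+/-, the arrays farthest from the median in angptl4, r was 0.68 and rho 0.76 (exact permutation, adjusted p = 0.101 and 0.0243, 12 arrays). At that setting rho passed 0.05 for this pair and r did not.

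Beyond the 5 genes, the lists held 126 genes of lipoprotein lipolysis, intracellular lipolysis and lipid droplets, fatty acid uptake and binding, lipoprotein receptors and regulators of fat mobilization, of which 53 were measured. For diet in ahcy+/+ livers 32 of the 53 were higher and 21 lower, with a median difference of 0.12, and 9 had an unadjusted p under 0.05. At an adjusted p of 0.05 (limma) 2 passed, both higher, which is 3.77%, against 4.50% of all probe sets. The first was sel1l, which encodes an adaptor of endoplasmic reticulum quality control that lipoprotein lipase needs to mature in mouse. It stood at 6.46 ± 0.14 (SD, n = 4) on the regular diet and 7.21 ± 0.38 (n = 5) after overfeeding, a difference of 0.74 ± 0.20 (SE; limma, adjusted p = 0.0497). The second was cebpb, a transcription factor gene of fat cell formation and the acute phase, at 10.66 ± 0.30 and 11.82 ± 0.48, a difference of 1.17 ± 0.26 (adjusted p = 0.023). Neither call held under every alternative: sel1l lost it in 15 of 24 and cebpb in 8 of 24. Both lost it with the pancreas and intestine covariates, where sel1l was at 0.80 (adjusted p = 0.0998) and cebpb at 0.83 (adjusted p = 0.128), and the 2 genes that passed there were cebpa and plin3. The count was 0 without regular-diet array 2, 5 or 6 or overfed array 4 or 6 of ahcy+/+, 1 without any single array of regular-diet ahcy+/- or overfed ahcy+/+ array 7, 3 without overfed ahcy+/+ array 3, and 4 without array 9, of which cebpb alone was among the first 2.

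By role, the 12 lipoprotein lipolysis genes had a median difference of 0.10, and lipia, of the lipase family, was at -0.30 (adjusted p = 0.192). Those of the list that did not pass ranged from -3.25 for apoea to 0.83. In ahcy+/+ livers on the regular diet apoea spanned 6.09 to 12.38. The 7 genes of intracellular lipolysis and the lipid droplet had a median of 0.51 with none below 0, but none passed the test. Among them fitm2, which helps droplets to form, was at 0.80 (adjusted p = 0.0736), and its other probe sets were at 0.90, -0.24 and 0.10. The carboxylesterase gene ces2b was at 0.51 (adjusted p = 0.0987). The 14 uptake, binding and activation genes had a median of 0.10 and ranged from -2.44 to 0.52, none past the test. Among them the fatty acid binding protein gene fabp3 was at 0.25 (adjusted p = 0.258) and the acyl-CoA binding protein gene dbi at 0.42 (adjusted p = 0.303). The 6 lipoprotein receptor genes had a median of -0.10, with the receptor chaperone gene lrpap1 at 0.47 (adjusted p = 0.313) and lrp1aa at -0.23 (adjusted p = 0.482). The 14 regulators had a median of 0.02, and the transcription factor gene cebpa was at -1.75 (adjusted p = 0.115).

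In the other contrasts 0 of the 53 genes passed limma's test: 7 had an unadjusted p under 0.05 for diet in ahcy+/- livers, 2 for genotype on the regular diet, 1 for genotype after overfeeding and 1 for the interaction. In ahcy+/- livers the diet difference was 0.44 ± 0.27 (SE) for sel1l and 0.93 ± 0.35 for cebpb.

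**Figure D4:**
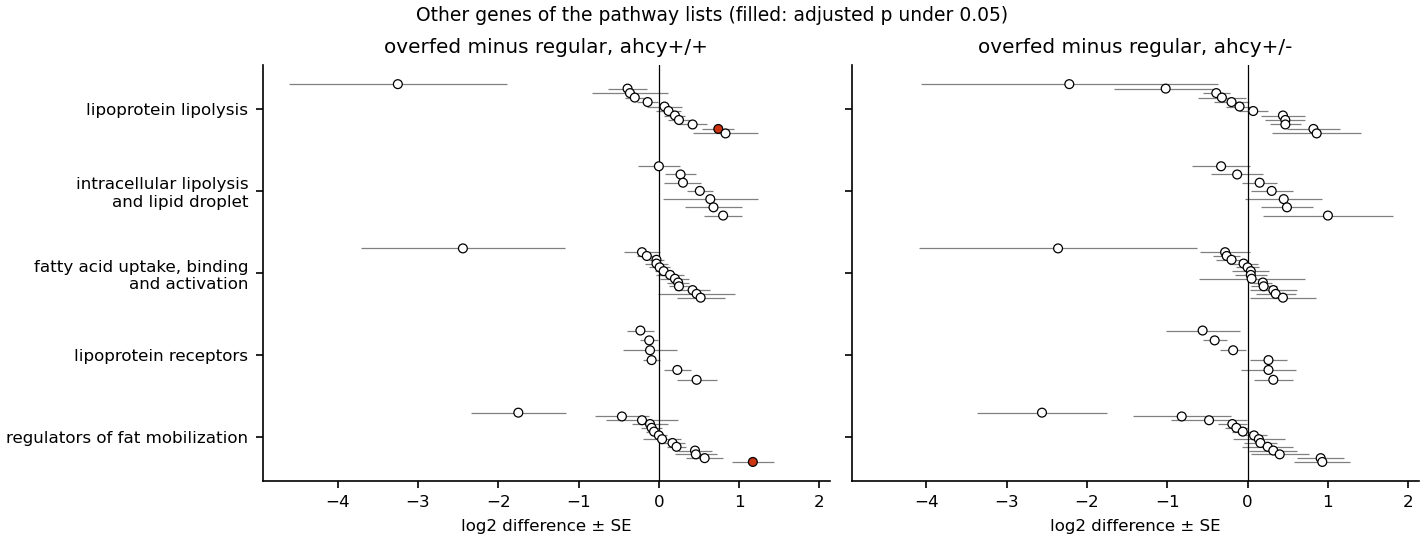
Diet difference (log2, with SE) of each of the 53 other genes by list, in ahcy+/+ and ahcy+/- livers; filled symbols have an adjusted p under 0.05. The filled symbols are sel1l at 0.74 and cebpb at 1.17, both in ahcy+/+ livers.

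The genes most like the other 4 over the 14 arrays, by the same measure and likewise chosen for it, differed from gene to gene. For slc27a6 they were timp2a (r = 0.96), npl (r = 0.95) and slc13a5a (r = 0.95). The citrate transporter gene slc13a5a had means of 8.33 and 10.10 in ahcy+/+ and 8.50 and 10.39 in ahcy+/- livers on the regular diet and after overfeeding. For lipea they were trpc4apa (r = 0.94), znf292b (r = 0.94) and egln1b (r = 0.93), an oxygen-sensing prolyl hydroxylase gene with group means of 7.26, 7.89, 9.06 and 9.72 in the order regular ahcy+/+, regular ahcy+/-, overfed ahcy+/+ and overfed ahcy+/-. For lpla they were serinc1 (r = 0.94), prnprs3 (r = 0.92) and selenop (r = 0.92), the last a selenium carrier made by liver. For lipca they were mfsd14a2 (r = 0.95), rem1 (r = 0.81) and pik3r1 (r = 0.77), of which mfsd14a2 had means of 7.66 and 7.34 in regular-diet ahcy+/+ and ahcy+/- livers.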

How the data were processed

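Liver RNA was measured on 14 Affymetrix arrays. The authors deposited log2 values; GCRMA and Partek are named, without version, role or order, per the submitters' processing notes. Of 15617 probe sets, 115 controls were left out, and 15134 of 15502 passed a filter of log2 above 4 on at least 2 arrays. The platform annotation names exactly 1 gene for 10795 probe sets, several for 135 and none for 4572; no sequences or genome coordinates were used here. Groups were compared with limma 3.58.1 in R 4.3.3 on all 14 arrays, with 1 mean per group and Benjamini-Hochberg adjustment over all tested probe sets, at 0.05. The fit was tested on simulated data. A gene of the lists was read by its probe set of highest mean. The members and lists were chosen with earlier results of these data known.

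Named genes were the 5 members, list genes that passed in any of 5 contrasts, the 2 per list with the smallest p for diet in ahcy+/+, and the 3 genes most like each member by Pearson r. The list genes lmf2b, plin3, apoea and fabp1b.1 were named after their values were seen. Alternatives changed the filter, moderation, array weights, normalization, covariates, groups fitted, replicate block and each array in turn. Correlations were computed in Python 3.11.15, with ranks from SciPy 1.17.1, and figures drawn with matplotlib 3.10.9. One overfed ahcy+/+ array is titled 4 and called O5 in its description; the title was used.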

Additional observations from a re-analysis of the deposited data

Results flagged for a closer look

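The 5 members, the list genes named by the stated rule and the marker lists were searched for an array far from the others. Genes named for their likeness to a member, or after their values were seen, were not searched. The search covered the regular-diet and overfed ahcy+/+ groups, the groups large enough for it, and 8 of 48 sets of values held such an array. Chance gives about 1 in 20, but the sets share the same arrays and are not independent, and 5 of the 8 are array 9 of the regular diet. On array 9 of regular-diet ahcy+/+ livers, angptl4 was 10.35 against 5.92 to 6.20 on the others, and the vitellogenin and oestrogen receptor list had a mean of 12.54 against 5.41 to 5.51. The same array had sel1l at 6.25 against 6.53 to 6.55, cebpb at 10.21 against 10.76 to 10.85, and cebpa at 7.50 against 9.79 to 10.24. On array 6 of that group the striated muscle list had a mean of 6.08 against 6.23 to 6.25. Among overfed ahcy+/+ livers, lrpap1 was 7.54 on array 3 against 8.55 to 8.82, and the vitellogenin and oestrogen receptor list had a mean of 8.43 on array 2 against 6.38 to 6.96.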

How the results depend on the processing

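For diet in ahcy+/+ livers, the differences over all alternatives were 2.63 to 4.46 for angptl4 and 2.26 to 2.48 for slc27a6. Quantile normalization gave 0.25 for lpla and -0.30 for lipca. Leaving out 1 array at a time gave 0.41 to 0.60 for lpla and -0.12 to -0.01 for lipca. For diet in ahcy+/- livers, angptl4 was 0.73 with the vitellogenin covariate, 4.63 with pancreas and intestine covariates, and 1.36 to 3.79 with 1 array left out. The range with 1 array left out was 1.70 to 2.29 for slc27a6 in that contrast, and 0.03 to 0.62 for genotype on the regular diet. The 2 list genes that passed for diet in ahcy+/+ became 1 with no filter or the compared groups only (cebpb) and with quantile normalization (sel1l), and 0 to 4 with 1 array left out. Both remained among 4 with the vitellogenin covariate and 7 with array weights. Neither remained with the pancreas and intestine covariates, where 2 other genes passed. With the replicate block, on numbers 2 and 6, sel1l was at 0.97 (limma, adjusted p = 0.0963) and cebpb at 1.04 (0.188). Neither passed there, and 1 other gene, lmf2b, did. The other lmf2b probe set was at -0.14 in the main fit, where the one used was at 0.83. With the block 73 of all probe sets passed against 681, and 1 of the 5 members against 2. That fit compares the diets only within the 2 shared numbers, so it has little power, and a call lost in it does not show a lost difference. No label says what the numbers mark, and deviations of same-numbered arrays correlated at -0.084 and 0.123, so whether they carry a shared day or batch is not known. All probe sets passing numbered 1949 with array weights, 1090 with the vitellogenin covariate, 1341 without array 9, 391 without overfed array 4, and 264, 300, 335 and 253 without regular arrays 2, 5 and 6 and overfed array 6. The causes were not tested.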
